A study of Mus musculus with 4 samples.

Results

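RNA levels in mouse acute myeloid leukaemia 72 h after doxycycline was started to switch the oncogene NRASG12V off were compared with those of the leukaemia with NRASG12V on. The comparison uses 2 of the 4 RNA-seq libraries of the study, 1 a side, and 11746 of 23235 gene rows, namely those that reached 1 FPKM in at least one of both libraries. FPKM are fragment counts divided by transcript length and by the number of fragments mapped, so levels can be compared between genes. Differences are given as log2((72 h FPKM + 1)/(on FPKM + 1)), called the log2 difference, and a gene is called higher or lower where that value reaches 2-fold. In a pair of levels the on library comes first, and a single value in brackets after it is the log2 difference. The added 1 FPKM understates the difference of genes with low values. With 1 library a side there is no replicate check and no test, so every value is a size.

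The leukaemia carries NRASG12V, a mutant of the small GTPase N-Ras that stays in its active form, and Mll-AF9, a fusion of the histone methyltransferase gene Mll with AF9. The cells were transplanted by tail vein into SCID/Beige mice, which lack working T and B cells and have impaired natural killer cells, and grew there to overt leukaemia before any switch. In the off groups doxycycline was injected into the peritoneum at time 0 and then given in the drinking water until harvest at 48 h, 72 h or 96 h. The on library, of the same genotype and host, was taken to be the column headed 0 h in the deposited tables. The labels do not name that column, do not give the time of the on harvest and carry the doxycycline text on all samples alike. The tissue taken, the number of mice behind a library and the promoter that drives NRASG12V are not named in the sources used here. No library is labelled as a doxycycline control with NRASG12V on, so the drug and the elapsed time cannot be told apart from the switch.

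Active Ras binds RAF kinases, which act through MEK on ERK. ERK in turn raises transcription of immediate early and ETS family genes and of its own inhibitors, the Dusp phosphatases and the Sprouty and Spred proteins. MLL fusions keep a Hoxa and Meis1 progenitor programme active, and the blasts they give rise to commonly resemble granulocyte and monocyte precursors, the cells that make the primary granule proteases of neutrophils.

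Of the 11746 rows, 776 were at least 2-fold higher at 72 h (6.61%) and 676 at least 2-fold lower (5.76%), and 10294 (87.6%) lay within 2-fold. Differences of 4-fold or more were seen for 124 rows above and 69 below, and of 8-fold or more for 15 above and 22 below. The rows called higher had a median of 5.22 FPKM on and 18.2 FPKM at 72 h, and those called lower 22.6 and 7.43 FPKM. The median over all rows was -0.07, and it moved with the level of the gene, from 0.38 for 352 rows with a mean of 0.5 to 1 FPKM and 0.08 for 3258 rows with a mean of 1 to 5 FPKM to -0.42 for 528 rows with a mean of 100 to 500 FPKM and -0.55 for 138 rows above that. The 10 most abundant genes held 9.96% of the summed FPKM on and 21.7% at 72 h. Rescaling the libraries without the red cell genes and short RNAs moved the median difference of genes with at least 1 FPKM in both by 0.18 (0.23 if the globin row Beta-s was also left out). The split of 776 higher and 676 lower then became 1070 and 438 (1180 and 397), and with the median set to 0 it was 906 and 539. Small negative list medians below are to be read against that shift. FPKM hold no read counts, so the depth is unknown; the steps of low values show 1.04 times as many reads per FPKM at 72 h as on. Of the rows compared, 7 outside short RNAs were listed at 0 on one side, which can be a failed estimate.

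**Figure D1:**
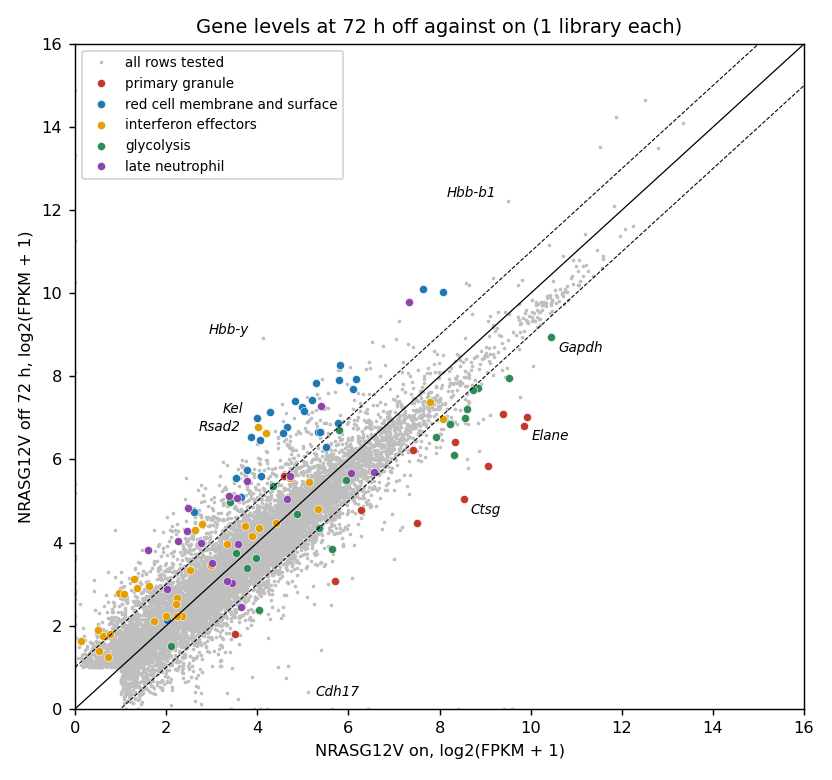
Level of each of the 11746 rows in the on library (x axis) and at 72 h (y axis), both as log2(FPKM + 1), with 5 gene lists in colour. The solid line marks equal levels and the dashed lines a 2-fold difference. Red cell membrane genes lie above the upper dashed line in 25 of 28 cases and primary granule genes below the lower one in 11 of 12.

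**Figure D2:**
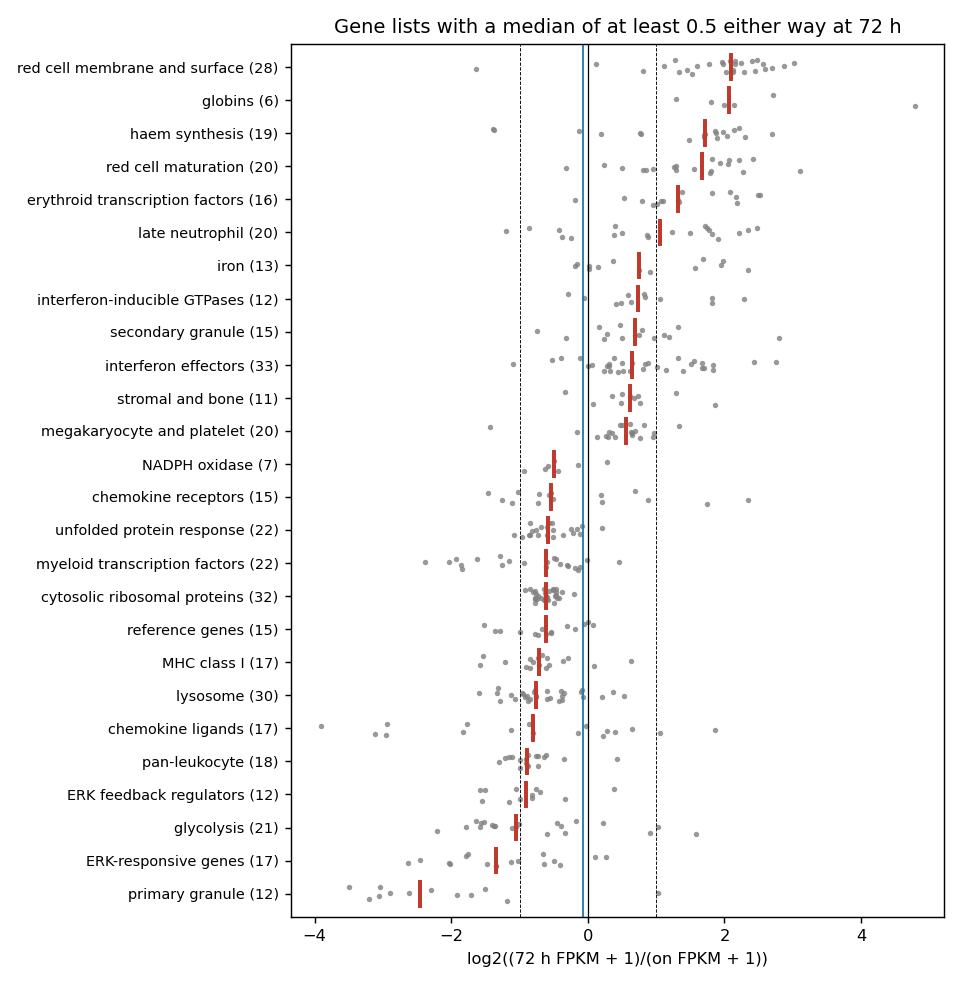
Log2 difference between 72 h and on (x axis) for each measured gene of the 26 lists whose median was at least 0.5 in size, with the number of genes in brackets. Red bars are list medians, the blue line is the median of all rows (-0.07) and dashed lines mark 2-fold. Of the 6 red cell lists, all but iron stand highest, from 1.33 to 2.10, and primary granule genes lowest at -2.46.

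The Ras genes themselves differed little. Mouse Nras stood at 23.2 FPKM on and 17.1 FPKM at 72 h (-0.42); reads of a human NRAS sequence may not all be assigned to it, so it is a weak check of the switch. Hras1 stood at 25.3 FPKM on and 22.9 FPKM at 72 h. Among 20 Ras genes and regulators, 2 were higher and none lower, against 6.61% and 5.76% of all rows. Those were the adaptor Gab1 (1.46 FPKM on and 4.92 FPKM at 72 h) and the Ras exchange factor Rasgrp4 (11.4 and 27.2 FPKM). None of 14 RAF, MEK, ERK and downstream kinases differed 2-fold, with Map2k1 (MEK1) at 38.1 FPKM on and 22.03 FPKM at 72 h and Mapk3 (ERK1) at 58.5 and 56.8 FPKM. The medians of these 2 lists, -0.10 and -0.04, turned to 0.06 and 0.15 on rescaling, so they have no firm direction.

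Genes downstream of ERK were lower. Of 17 measured ERK-responsive genes, 11 were at least 2-fold lower and none higher, with a median of -1.34. Etv4, an ETS factor, went furthest, with 5.74 FPKM on and 0.0910 FPKM at 72 h (-2.63), and its relative Etv5 stood at 14.1 and 3.37 FPKM (-1.78). The receptor tyrosine kinase gene Epha2 stood at 9.84 FPKM on and 0.980 FPKM at 72 h (-2.45). The AP-1 gene Fos stood at 8.02 FPKM on and 1.23 FPKM at 72 h (-2.02) and its partner Jun at 12.7 and 3.93 FPKM (-1.47). All 5 thus had their on library clearly above the 72 h one, at levels that are modest on both sides. Egr1, an immediate early zinc finger factor, stood at 9.58 FPKM on and 1.59 FPKM at 72 h and Ccnd1, the cyclin D1 that drives entry into S phase, at 57.2 and 16.2 FPKM (-1.76). Myc stood at 39.0 FPKM on and 24.4 FPKM at 72 h (-0.66), short of 2-fold, and Fosl2 and Phlda1 stood slightly above on.

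Of 12 measured feedback inhibitors of the pathway, 5 were lower, none higher, and the median was -0.90. The ERK phosphatase gene Dusp6 stood at 37.7 FPKM on and 18.5 FPKM at 72 h (-0.99), just short of 2-fold. Dusp5 stood at 5.88 FPKM on and 1.31 FPKM at 72 h, Dusp7 at 19.0 and 5.83 FPKM and Dusp2 at 6.44 and 1.61 FPKM. The Ras and RAF inhibitors Spry2 and Spred2 were lower too, Spry2 with 5.41 FPKM on and 2.08 FPKM at 72 h and Spred2 with 12.2 and 4.896 FPKM. Only Spry1 of the 12 stood above on, at 1.83 FPKM on and 2.68 FPKM at 72 h. On rescaling, 3 of the 12 feedback genes and 9 of the 17 ERK-responsive genes were lower by 2-fold.

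Along the PI3K branch, which Ras also feeds, 2 of 26 genes were higher and none lower, a share near the 6.61% of all rows. They were Foxo3 (13.1 FPKM on and 35.6 FPKM at 72 h) and Foxo4 (8.54 and 22.7 FPKM), transcription factors that Akt keeps out of the nucleus. Akt1 stood at 104 FPKM on and 57.7 FPKM at 72 h (-0.83).

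Genes of the MLL fusion programme went both ways. Of 21 measured partners and targets, 2 were higher and 3 lower (3 and 2 on rescaling), against 6.61% and 5.76% of all rows. The median was 0.00. Hoxa7 stood at 6.30 FPKM on and 1.82 FPKM at 72 h (-1.37), Mef2c at 26.1 and 9.78 FPKM (-1.33) and Cdk6, a G1 kinase, at 24.7 and 10.7 FPKM (-1.14). Hoxa9, the best known target, stood at 4.04 FPKM on and 2.23 FPKM at 72 h and Meis1, its cofactor, at 4.48 and 4.69 FPKM, so neither reached 2-fold. Above on were Mllt3, the mouse AF9 gene, at 3.93 FPKM on and 12.7 FPKM at 72 h (1.47) and Psip1, the chromatin tether of MLL, at 22.7 and 50.1 FPKM (1.11). Reads of the fusion and of normal Mll and AF9 transcripts are not told apart by these gene-level values.

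Of 16 measured self-renewal and progenitor genes, 4 were lower and none higher (3 and 1 on rescaling with Beta-s left out too). The progenitor surface gene Cd34 stood at 19.1 FPKM on and 4.49 FPKM at 72 h (-1.87) and Cd93 at 24.2 and 9.18 FPKM. The survival gene Bcl2 stood at 9.05 FPKM on and 3.03 FPKM at 72 h (-1.32) and the transcriptional coregulator Cited2 at 90.2 and 38.2 FPKM. Myb, needed for the growth of MLL leukaemia, stood at 33.6 FPKM on and 18.0 FPKM at 72 h (-0.86), while Kit and Flt3, receptors of early progenitors, were near their on levels.

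Transcription factors of the granulocyte and monocyte lines were lower in 9 of 22 cases and higher in none, with a median of -0.61. Cebpa, which commits cells to the granulocyte line, stood at 38.8 FPKM on and 9.99 FPKM at 72 h (-1.86), and Sfpi1 (PU.1), at 191 and 85.6 FPKM (-1.15). Klf4, a monocyte factor, stood at 32.9 FPKM on and 5.51 FPKM at 72 h (-2.38) and Gfi1, a repressor that shapes neutrophils, at 14.5 and 5.46 FPKM. Cebpe, the factor of the secondary granule stage, stood at 79.6 FPKM on and 60.1 FPKM at 72 h and was not lower by 2-fold.

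The 3 stages of neutrophil granule genes differed in opposite directions. Among 12 primary granule and promyelocyte genes, 11 were lower and 1 higher, with a median of -2.46, and their summed level was 4305 FPKM on and 729.6 FPKM at 72 h. Mpo (myeloperoxidase) stood at 973 FPKM on and 129.7 FPKM at 72 h, Elane (neutrophil elastase) at 929 and 112 FPKM, Prtn3 (proteinase 3) at 530.2 and 56.5 FPKM and Ctsg (cathepsin G) at 371 and 32.0 FPKM. For these 4 enzymes of the azurophil granule the 72 h level was a small share of the on level. The smallest difference among the lower genes was that of the protease inhibitor Serpinb1a (-1.19), and Mgst1, a glutathione transferase, was the exception at 22.99 FPKM on and 47.7 FPKM at 72 h (1.02).

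Secondary and tertiary granule genes, made later, were not lower in any of 15 cases and higher in 4, with a median of 0.70. Mmp8, the neutrophil collagenase, stood at 22.4 FPKM on and 162 FPKM at 72 h (2.80). Ltf (lactoferrin) stood at 579 FPKM on and 1316 FPKM at 72 h (1.18). Padi4, which citrullinates histones, and Olfm4 were the other two called, Padi4 with 17.7 FPKM on and 45.7 FPKM at 72 h and Olfm4 with 10.3 and 23.5 FPKM. The calcium binding proteins S100a8 and S100a9 were among the most abundant transcripts of both libraries. S100a9 stood at 10426 FPKM on and 17572 FPKM at 72 h (0.75), and S100a8 at 7135 and 11558 FPKM. Camp, Ngp and Lcn2 each stood above on by less than 2-fold.

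Of 20 genes of late neutrophils, 10 were higher and 1 lower (Clec4e), with a median of 1.06. Retnlg, a resistin-like secreted protein, stood at 159 FPKM on and 887 FPKM at 72 h (2.47) and the formyl peptide receptor gene Fpr1 at 4.58 and 27.4 FPKM (2.35). The chemokine receptor Cxcr2 stood at 9.39 FPKM on and 33.7 FPKM at 72 h and the G-CSF receptor Csf3r at 12.6 and 43.9 FPKM. Mmp9 (gelatinase B) stood at 41.0 FPKM on and 155 FPKM at 72 h, and the cytokine gene Il1b at 2.04 and 13.1 FPKM. Set beside the other off times, on a common scale, the list's median was 0.78 at 48 h, 1.06 at 72 h and -0.18 at 96 h. The sum of its genes was 513, 1499, 1473 and 879 FPKM for on and for 48 h, 72 h and 96 h off, so the 72 h library lay near the 48 h one.

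**Figure D3:**
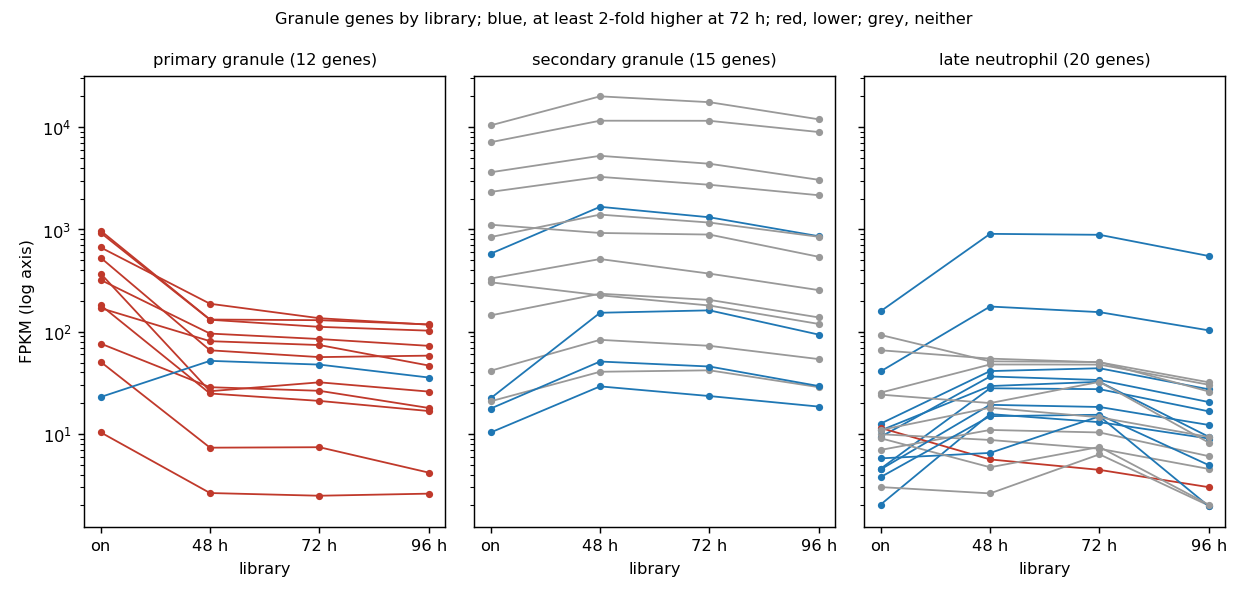
FPKM (log axis) of primary granule, secondary granule and late neutrophil genes in each of the 4 libraries (x axis), 1 line a gene. Blue lines are genes at least 2-fold higher at 72 h than on, red lines genes at least 2-fold lower and grey lines the rest; 11 of 12 lines are red in the first panel and 10 of 20 blue in the last.

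Monocyte and macrophage genes were partly lower. Of 24, 9 were lower and none higher, 15 lay below on by any amount, and the median of -0.18 turned to 0.02 on rescaling. Lower were the inflammatory monocyte surface gene Ly6c2 (457 FPKM on and 117 FPKM at 72 h), the clotting factor gene F13a1 (122 and 24.6 FPKM), the scavenger receptor gene Msr1 (18.3 and 3.47 FPKM), Trem2 (36.8 and 4.73 FPKM) and the lipopolysaccharide coreceptor Cd14 (33.1 and 12.3 FPKM). The macrophage genes Cd68 (log2 difference -1.05) and Gpnmb (-1.40) were lower as well, while Emr1 (F4/80, -0.06) and Mpeg1 (-0.21) lay near on. Other members stood above on. The complement gene C1qa stood at 78.2 FPKM on and 101 FPKM at 72 h, Apoe at 234 and 315 FPKM, the mannose receptor Mrc1 at 16.8 and 23.2 FPKM and the apoptotic cell receptor Mertk at 5.93 and 8.99 FPKM. None of these 4 reached 2-fold.

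Chemokine genes were lower in 7 of 17 measured cases and higher in 2. Ccl2, which draws monocytes, stood at 23.8 FPKM on and 0.658 FPKM at 72 h (-3.91), and its neighbour Ccl7 at 9.07 and 0.295 FPKM. Ccl9 stood at 66.9 FPKM on and 7.88 FPKM at 72 h and Spp1 (osteopontin), counted in this list, at 47.8 and 4.64 FPKM. Higher were Ccl5 (9.25 FPKM on and 20.4 FPKM at 72 h) and Cxcl12, the stromal ligand that retains blood progenitors in marrow, at 25.1 and 93.4 FPKM (1.85). Leaving out short RNAs and rows at 0, the largest negative difference was that of the cadherin Cdh17 (33.7 FPKM on and 0.317 FPKM at 72 h), followed by the small GTPase Gem (41.4 and 1.68 FPKM).

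Lysosomal genes, from which phagocytes draw their digestive enzymes, were lower in 6 of 30 cases, with 27 of 30 below on by any amount (54.7% of all rows were) and a median of -0.75. Ctsz stood at 265 FPKM on and 86.9 FPKM at 72 h and Gusb at 95.5 and 38.7 FPKM. Genes found across leukocytes had a similar tendency, with 17 of 18 below on, 4 lower by 2-fold (1 after rescaling with Beta-s left out too) and a median of -0.89. Coro1a, an actin regulator, stood at 659 FPKM on and 284 FPKM at 72 h, while Ptprc (CD45) stood at 66.4 and 89.6 FPKM. The summed level of these 18 genes was 5146 FPKM on and 2800.5 FPKM at 72 h, and whether this bears on the lower myeloid genes above was not tested. In bulk RNA, fewer cells of a type and less RNA per cell cannot be told apart.

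Of the 6 red cell lists, 5 (globins, haem synthesis, membrane, maturation and transcription factors) had the medians farthest above that of all rows, and that of the iron list was 0.75. Erythroid precursors switch on a small set of transcription factors led by Gata1, Klf1 and Tal1, and then globins, the haem pathway and the membrane skeleton of the red cell. Gata1 binds GATA sequences, searched here as AGATAA. The search ran from 250 bases before to 50 bases after the RefSeq start, on either strand. These letters were found for 6 of the 18 measured red cell membrane genes with a promoter entry (33.3%), against 12.7% of all 27025 genes. All 6 were at least 2-fold higher at 72 h, as were 9 of the 12 without the letters. In the haem list the letters were found for 2 of 14 members with an entry (14.3%), near the share of all genes. A 100-base stretch of 3 of these membrane genes and of Alas2, of the haem list, is printed to show where the letters lie, from RefSeq on GRCm38.p6, a later build than that of the deposited files, 5′ to 3′ on the gene's strand. They are Kel, chr6:41704326-41704425 (minus strand), Epb4.2, chr2:121037028-121037127 (minus strand), Rhd, chr4:134864436-134864535 (plus strand), and Alas2, chrX:150547291-150547390 (plus strand). Capitals mark AGATAA or its reverse complement. A match is a description of the sequence only.
Kel: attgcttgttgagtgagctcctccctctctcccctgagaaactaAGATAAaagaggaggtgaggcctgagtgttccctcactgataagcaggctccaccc
Epb4.2: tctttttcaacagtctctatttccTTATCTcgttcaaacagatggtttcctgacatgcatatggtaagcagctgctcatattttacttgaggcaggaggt
Rhd: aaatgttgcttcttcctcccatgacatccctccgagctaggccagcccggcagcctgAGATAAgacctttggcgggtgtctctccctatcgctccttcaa
Alas2: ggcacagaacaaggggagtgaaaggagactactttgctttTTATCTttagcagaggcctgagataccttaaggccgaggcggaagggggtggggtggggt

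Of 16 erythroid transcription factors, 12 were higher and none lower, with a median of 1.33. Klf1, an activator of the adult beta gene of haemoglobin, stood at 23.9 FPKM on and 138 FPKM at 72 h (2.49). Gata1 stood at 20.9 FPKM on and 76.1 FPKM at 72 h (1.82), its cofactor Zfpm1 (FOG1) at 27.0 and 126 FPKM and Tal1 at 20.98 and 92.3 FPKM. Sox6 stood at 3.35 FPKM on and 18.6 FPKM at 72 h, and Bcl11a, a repressor of fetal and embryonic globins, at 12.2 and 24.6 FPKM (0.95), short of 2-fold. Gata2, which Gata1 replaces as precursors mature, stood at 7.36 FPKM on and 3.23 FPKM at 72 h (-0.98). The erythropoietin receptor gene Epor stood at 12.6 FPKM on and 52.5 FPKM at 72 h (1.97).

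All 6 measured globin rows were higher, with a median of 2.07. The adult beta globin rows Hbb-b2 and Hbb-b1 stood at 5828 FPKM on and 25742 FPKM at 72 h and at 723 and 4738 FPKM. The row named Beta-s, also beta globin and in no list, stood at 3760.5 FPKM on and 19414 FPKM at 72 h. The embryonic gene Hbb-y had the largest positive log2 difference outside short RNAs and rows at 0, 4.79, with 16.5 FPKM on and 481 FPKM at 72 h, and Hbb-bh1, also embryonic, stood at 0.431 and 3.98 FPKM. Hba-a1, the alpha chain, stood at 2945 FPKM on and 11718 FPKM at 72 h and is listed at 0 at 96 h. Near-identical globin copies share reads, so the division between rows is uncertain, and the adult globins were abundant in the on library already.

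Of 19 genes of haem synthesis, transport and breakdown, 13 were higher and 2 lower. The first step showed both directions. Alas2, the erythroid form of the rate-limiting enzyme, stood at 138 FPKM on and 643 FPKM at 72 h (2.21), and Alas1, the form of other cells, at 52.0 and 19.4 FPKM (-1.38). Later steps were higher, among them Alad (1.48), Uros (2.69), Urod (1.72), Cpox (2.14), Ppox (2.04) and Fech (1.88). Uros went furthest, with 8.46 FPKM on and 60.2 FPKM at 72 h. The mitochondrial iron importer Slc25a37 stood at 90.4 FPKM on and 451 FPKM at 72 h. Hmox1, which breaks haem down, was lower with 248 FPKM on and 93.7 FPKM at 72 h, while the biliverdin reductase gene Blvrb was higher with 107 and 426 FPKM.

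For iron, 5 of 13 genes were higher and none lower. The transferrin receptor gene Tfrc stood at 55.1 FPKM on and 283 FPKM at 72 h (2.34), the endosomal reductase gene Steap3 at 11.2 and 45.9 FPKM and the iron carriers Slc11a2 at 8.64 and 30.0 FPKM and Slc40a1 (ferroportin) at 25.4 and 77.2 FPKM. Ferritin heavy chain, Fth1, stood at 1354 FPKM on and 2281 FPKM at 72 h and the light chain, Ftl1, at 1437 and 1264 FPKM.

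**Figure D4:**
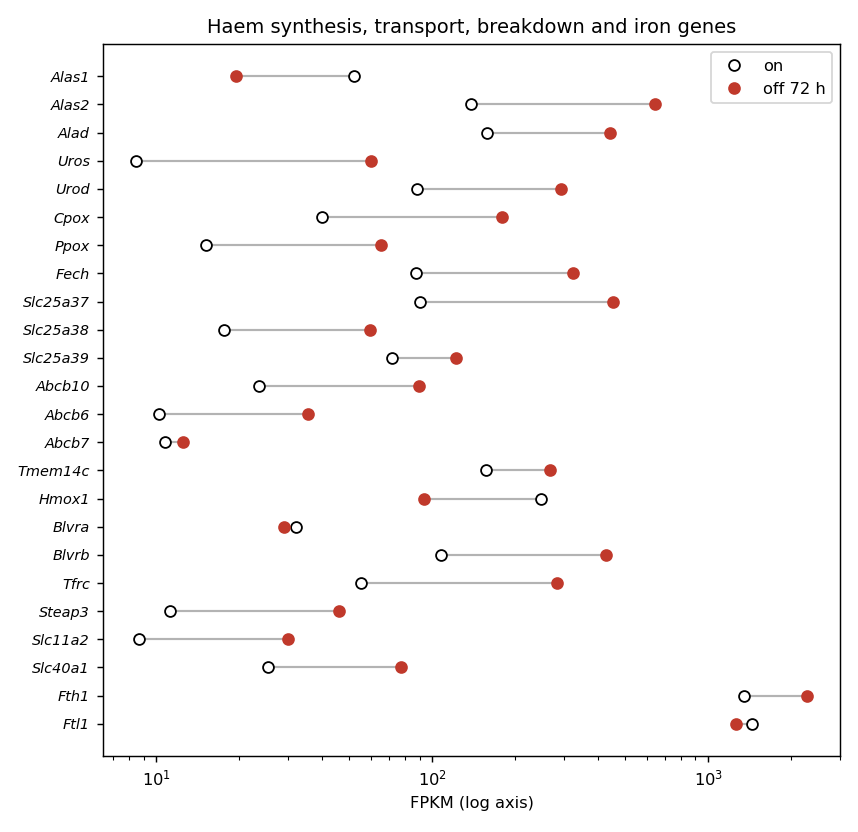
FPKM on (open circles) and at 72 h (red circles) on a log axis for genes of haem synthesis in pathway order, then transport, breakdown and iron handling. Alas1 and Hmox1 lie to the left of their on level by more than 2-fold, and each enzyme shown from Alad to Fech to the right.

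Membrane and surface genes of the red cell were higher in 25 of 28 cases, with a median of 2.10. Spectrin, the skeleton's main fibre, was represented by Spna1 (18.4 FPKM on and 141 FPKM at 72 h) and Spnb1 (30.6 and 153 FPKM). Ank1 (ankyrin) stood at 24.0 FPKM on and 109.9 FPKM at 72 h, the linker Epb4.2 at 13.5 and 92.7 FPKM and the anion exchanger Slc4a1 (band 3) at 270.2 and 1053 FPKM. Among blood group genes, Kel stood at 14.95 FPKM on and 128 FPKM at 72 h (3.01) and Ermap at 27.2 and 169 FPKM. Carbonic anhydrases Car1 and Car2 stood at 37.8 FPKM on and 228 FPKM at 72 h and at 198 and 1106 FPKM. The only one lower was the glucose carrier Slc2a1 (15.4 FPKM on and 4.24 FPKM at 72 h), which many other cells use.

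Genes of red cell maturation and clearance of organelles were higher in 14 of 20 cases and lower in none. Bpgm, which makes the bisphosphoglycerate that loosens oxygen from haemoglobin, stood at 33.2 FPKM on and 182 FPKM at 72 h (2.42). Bnip3l, needed for mitochondrial removal, stood at 47.1 FPKM on and 114 FPKM at 72 h, and the ubiquitin enzyme Ube2o, which clears ribosomes, at 20.98 and 89.9 FPKM. Xpo7 stood at 11.5 FPKM on and 56.95 FPKM at 72 h and Fn3k, which repairs sugar-modified proteins, at 4.39 and 45.6 FPKM (3.11). Prdx2, the red cell peroxiredoxin, stood at 399 FPKM on and 1173 FPKM at 72 h.

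Sums over whole red cell lists hold the same genes as above and are not a separate result. The share of red cell precursors in each library was not measured. The summed level of the 28 membrane genes was 1240.1 FPKM on and 5289 FPKM at 72 h, and that of the 16 factors 513 and 1387 FPKM. Megakaryocyte and platelet genes, which share Gata1 and Tal1 with the red cell line, were higher in 1 of 20 cases (Gp6) and lower in 1 (Selp), or 3 and 1 with the median set to 0 and 4 and 1 on rescaling (5 and 1 with Beta-s left out too), with a median of 0.56; 18 of 20 lay above on by any amount, against 45.3% of all rows. Their summed level was 533 FPKM on and 753 FPKM at 72 h.

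Genes induced by interferon were mostly above on at 72 h and below both other off times. Type I interferon acts through a factor complex that holds IRF9 and binds the interferon-stimulated response element, searched here on both strands as GAAA, any 2 letters and GAAA again. The window searched ran from 250 bases before to 50 bases after the start. The element was found for 13 of the 25 measured interferon effectors with a RefSeq promoter (52%), against 3.99% of all 27025 genes. Their median log2 difference was 0.62 with the element and 0.47 in the 12 without it. Called higher were 5 of the 13 with the element and 5 of the 12 without it. The element was also found for Ifitm2, called lower (-1.09), and for Bst2 (-0.52). The stretches of 5 effectors called higher are printed, with each copy of the element or its reverse complement in capitals and overlapping copies joined. They are Rsad2, chr12:26456513-26456612 (minus strand), Isg15, chr4:156200825-156200924 (minus strand), Oas3, chr5:120777675-120777774 (minus strand), Ifit3, chr19:34583367-34583466 (plus strand), and Ifit1, chr19:34640764-34640863 (plus strand), on GRCm38.p6.
Rsad2: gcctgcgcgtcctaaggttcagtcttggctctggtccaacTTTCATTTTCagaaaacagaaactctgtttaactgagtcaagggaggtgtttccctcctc
Isg15: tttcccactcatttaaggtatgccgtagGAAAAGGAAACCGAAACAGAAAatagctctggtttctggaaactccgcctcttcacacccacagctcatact
Oas3: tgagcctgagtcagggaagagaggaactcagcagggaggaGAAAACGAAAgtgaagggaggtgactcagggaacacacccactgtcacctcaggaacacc
Ifit3: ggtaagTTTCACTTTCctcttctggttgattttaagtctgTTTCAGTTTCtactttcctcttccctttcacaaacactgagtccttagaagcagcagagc
Ifit1: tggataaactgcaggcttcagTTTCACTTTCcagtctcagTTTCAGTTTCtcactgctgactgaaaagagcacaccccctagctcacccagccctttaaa

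Of 33 measured effectors, 13 were higher at 72 h than on and 1 lower (Ifitm2), with a median of 0.65. Rsad2 (viperin) stood at 15.2 FPKM on and 109 FPKM at 72 h (2.76) and Isg15, a ubiquitin-like modifier, at 17.4 and 97.9 FPKM (2.43). The nucleotide kinase gene Cmpk2, next to Rsad2 in the genome, stood at 5.15 FPKM on and 18.9 FPKM at 72 h, and Usp18, which removes Isg15 from proteins, at 1.46 and 7.75 FPKM. Oas3 and Oasl2, of the double-stranded RNA sensors, stood at 1.57 FPKM on and 6.54 FPKM at 72 h and at 0.937 and 5.91 FPKM. Many members sat low, such as Ifit1 (0.520 FPKM on and 2.34 FPKM at 72 h) and Ifit3 (0.418 and 2.71 FPKM). Of the 12 interferon-inducible GTPases 4 were higher and none lower, among them Irgm2 (4.84 FPKM on and 27.6 FPKM at 72 h) and Igtp (9.25 and 34.97 FPKM).

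Set beside 48 h and 96 h, the 72 h level was the lowest of the 3 off libraries in 26 of 33 effectors and 10 of 12 GTPases, against 18.1% of all rows, and these counts were the same with the medians of the off libraries set equal (all rows, 23.4%). That order was not particular to interferon genes. The 72 h level was also lowest in 22 of 32 ribosomal protein genes (28 with those medians set equal). For Atf4 targets it was lowest in 12 of 22 (14), and for red cell membrane genes in 0 of 28. The effectors' median against on was 1.37 at 48 h, 0.65 at 72 h and 0.95 at 96 h. Isg15 stood at 17.4, 200.3, 97.9 and 173 FPKM on and at 48 h, 72 h and 96 h. Irf7, which amplifies the interferon response, stood at 7.79, 52.3, 25.2 and 41.6 FPKM. For both, on was lowest and 72 h lowest of the off libraries. Rsad2 went otherwise, with 15.2, 105, 109 and 137 FPKM. With 1 library a time, the time and the sample cannot be told apart.

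Regulators of the response went both ways, with 1 of 22 higher (Irf7) and 3 lower. The balance depends on the scaling, since 4 were higher and 2 lower with the median set to 0 and 5 and 2 on rescaling (6 and 2 with Beta-s left out too), and 1 of 22 is near the share of all rows called higher (6.61%). Irf5 stood at 89.5 FPKM on and 28.5 FPKM at 72 h (-1.62), Tmem173 (STING) at 27.9 and 10.5 FPKM and Socs1, a feedback inhibitor, at 2.96 and 0.915 FPKM. Irf9 stood at 16.1 FPKM on and 32.4 FPKM at 72 h, just short of 2-fold. MHC class I and antigen processing genes, many of which interferon also induces, were below on in 15 of 17 cases and lower by 2-fold in 3, with a median of -0.72. Psmb8, an immunoproteasome subunit, stood at 184 FPKM on and 62.6 FPKM at 72 h (-1.54), Psmb10 at 48.7 and 20.6 FPKM and H2-Q7, one of a family of near-identical copies, at 6.62 and 1.56 FPKM. The 72 h level of 11 of these 17 was the lowest of the off libraries, against 18.1% of all rows. With the off medians set equal the count was again 11, against 23.4%.

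**Figure D5:**
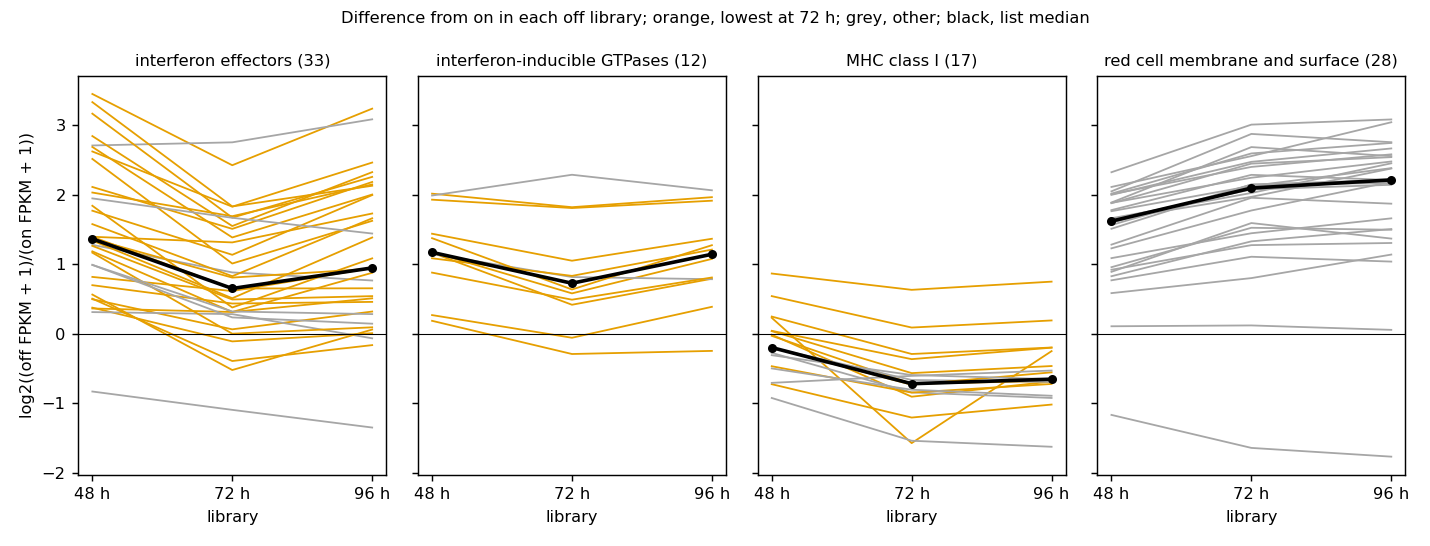
Log2 difference from on at 48 h, 72 h and 96 h (x axis) for each gene of 4 lists, with list medians in black. Orange lines are genes whose 72 h level was the lowest of the off libraries, 26 of 33 effectors, 10 of 12 GTPases, 11 of 17 MHC class I genes and none of 28 red cell membrane genes.

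Glycolysis was the metabolic list with the largest median difference. Of 21 genes, 12 were lower and 2 higher (9 and 3 on rescaling), with a median of -1.06. Pgam1 stood at 316 FPKM on and 67.5 FPKM at 72 h (-2.21), Pkm2 (pyruvate kinase) at 736 and 247 FPKM, Eno1 (enolase) at 376 and 126 FPKM and Gapdh at 1401 and 489 FPKM (-1.52). The isoforms of single steps parted. Phosphofructokinase Pfkp stood at 48.8 FPKM on and 13.4 FPKM at 72 h and Pfkm at 9.54 and 30.4 FPKM (1.58), and the glucose carriers Slc2a1 at 15.4 and 4.24 FPKM and Slc2a3 at 19.4 and 40.4 FPKM. The red cell pyruvate kinase gene Pklr stood at 13.7 FPKM on and 50.1 FPKM at 72 h (1.80). Hypoxia-responsive genes outside glycolysis were lower in 3 of 16 cases, led by Ddit4, an inhibitor of mTOR signalling, at 140.1 FPKM on and 18.7 FPKM at 72 h (-2.84).

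Mitochondrial genes lay closer to on. None of 29 respiratory chain genes differed 2-fold (median -0.31), and of 25 genes of the citric acid cycle and pyruvate use, 1 was lower, Idh2 (55.9 FPKM on and 25.2 FPKM at 72 h), and 1 higher, Pcx (pyruvate carboxylase, 3.001 and 10.4 FPKM). On rescaling none of the 25 was lower. Sterol synthesis genes were lower in 4 of 22 cases (2 on rescaling), with Insig1, a brake on the pathway, at 17.5 FPKM on and 7.04 FPKM at 72 h. Their 72 h level was the lowest of the off libraries in 14 of 22, against 18.1% of all rows. With the off medians set equal it was lowest in 15 of 22, against 23.4%.

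Genes that Atf4 induces when amino acids run short were higher in 5 of 22 cases (9 on rescaling) and lower in none, with a median of 0.49. Asns (asparagine synthetase) stood at 24.3 FPKM on and 80.7 FPKM at 72 h (1.69), Trib3 at 0.977 and 5.35 FPKM (1.68) and Ddit3 (CHOP) at 11.5 and 33.7 FPKM (1.47). The serine synthesis genes of the list went the other way, with Psat1 at 56.7 FPKM on and 29.7 FPKM at 72 h and Phgdh at 43.5 and 24.8 FPKM, short of 2-fold. The C/EBP-Atf response element was searched as TGATGNAA on both strands, from 250 bases before to 50 bases after the start. It was found for 6 of the 20 members with a promoter entry (30%) and for 4.51% of all genes. The median log2 difference was 1.16 with the element and 0.26 without it. Called higher were 3 of the 6 with it and 2 of the 14 without it. Atf3 (-0.44) and Pycr1 (-0.57), which also carry the element, lay below on. The element is shown in capitals for Asns, the member with the largest difference, chr6:7693210-7693309 (minus strand), GRCm38.p6.
Asns: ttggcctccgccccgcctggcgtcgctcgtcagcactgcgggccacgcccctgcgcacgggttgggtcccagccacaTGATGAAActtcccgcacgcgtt

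Of 18 Nrf2 targets, 4 were higher and 3 lower. Gclm, a subunit of the first enzyme of glutathione synthesis, stood at 35.8 FPKM on and 139.7 FPKM at 72 h (1.93) and Nqo1 at 3.41 and 12.7 FPKM, while Gstm1, a glutathione transferase, stood at 143 and 19.8 FPKM (-2.79) and Gsr (glutathione reductase) at 258 and 97.7 FPKM. In polyamine synthesis, Odc1, the rate-limiting decarboxylase, stood at 143 FPKM on and 277 FPKM at 72 h (0.94) and spermine oxidase, Smox, at 32.3 and 107 FPKM (1.69). Amd1 is listed near 0 on and at 5.73 FPKM at 72 h, but it has near-identical copies and is uncertain.

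Most ribosomal protein, ribosome biogenesis, proteasome and unfolded protein response genes were modestly below on. As deposited, all 32 measured ribosomal protein genes were below on and none by 2-fold, with a median of -0.61 (-0.35 on rescaling with Beta-s left out too). They ranged from -0.92 for Rpl18 to -0.20 for Rpl7, and near-identical pseudogene copies make single values uncertain. Ribosome biogenesis genes had a median of -0.32, proteasome genes -0.43 and unfolded protein response genes -0.58. On rescaling these 3 medians were -0.13, -0.23 and -0.39. Across these 3 lists 1 gene differed 2-fold as deposited, and none on rescaling. That gene was Pdia6, a disulphide isomerase, at 118 FPKM on and 55.2 FPKM at 72 h. Most genes commonly used as loading references were below on as well, 13 of 15, while Tbp stood at 12.2 FPKM on and 12.9 FPKM at 72 h and Polr2a at 67.0 and 64.6 FPKM.

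Cell cycle genes lay around or above on, unlike Ccnd1. Of 32 DNA replication genes, 4 were higher and none lower, with a median of 0.33. Those were Orc1 (4.34 FPKM on and 13.3 FPKM at 72 h) and Cdc6 (13.6 and 34.2 FPKM), which load the replicative helicase, and the E cyclins Ccne1 (25.1 and 63.9 FPKM) and Ccne2 (log2 difference 1.22). Of 34 mitotic genes, 3 were higher and none lower, a share near the 6.61% of all rows. The proliferation marker Mki67 stood at 111 FPKM on and 309 FPKM at 72 h (1.47) and the phosphatase gene Cdc25b at 35.3 and 96.7 FPKM, while Ccnb1 (74.6 and 83.8 FPKM) and Cdk1 (38.8 and 40.2 FPKM) lay near on. The median of the replication list was 0.00 at 48 h and 0.60 at 96 h, and the 72 h value lay between them.

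Among 21 G1 cyclins, kinases, inhibitors and E2F genes, 3 were higher and 4 lower (4 and 3 on rescaling). Ccnd2 stood at 41.2 FPKM on and 15.1 FPKM at 72 h beside Ccnd1 and Cdk6 above, and Ccnd3, the D cyclin of erythroid cells, at 168 and 234 FPKM. The inhibitor gene Cdkn2a stood at 18.1 FPKM on and 5.78 FPKM at 72 h (-1.49), Cdkn1b (p27) at 19.2 and 41.0 FPKM (1.06) and Rb1 at 15.1 and 41.5 FPKM (1.40).

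In the Bcl2 family, 1 of 19 genes was higher and 5 lower (2 on rescaling). Bcl2l1, whose product Bcl-xL keeps maturing erythroblasts alive, stood at 35.1 FPKM on and 78.9 FPKM at 72 h (1.15). Bcl2, in contrast, was lower, as were the effectors of mitochondrial cell death Bax (131 FPKM on and 62.1 FPKM at 72 h) and Bak1 (77.3 and 32.9 FPKM), their activator Bid (32.3 and 14.7 FPKM) and Pmaip1 (Noxa, 15.3 and 6.49 FPKM). Mcl1 stood at 112 FPKM on and 97.9 FPKM at 72 h. Bcl2l11 (Bim), whose protein ERK marks for destruction, stood at 6.85 FPKM on and 8.24 FPKM at 72 h. Trp53 stood at 51.6 FPKM on and 54.6 FPKM at 72 h. Of 24 genes of its pathway 1 was higher and 2 were lower, against 6.61% and 5.76% of all rows. The higher one was Btg2 (17.7 and 54.3 FPKM), and the lower ones were Bax and Pmaip1. On rescaling 3 of the 24 were higher and none lower.

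Few genes stood at least 1.5-fold apart from both other off times at 72 h. On the common scale 16 of 11705 rows were at least 1.5-fold above both 48 h and 96 h (0.137%) and 37 at least 1.5-fold below both (0.316%). Of the 16, 11 were short RNAs, and no interferon or MHC class I gene was among them. The protein-coding genes named by the rule were the stefins Stfa2, Stfa1 and BC100530, inhibitors of cysteine proteases and near-identical copies of one another. Stfa2 stood at 5.78, 6.53, 14.9 and 1.96 FPKM on and at 48 h, 72 h and 96 h. Of the 37, 14 belonged to the interferon and MHC class I lists (37.8%, against 0.718% of all such rows). Others were Saa3, an acute phase protein, with 4.63, 10.6, 4.49 and 13.7 FPKM, and Gzma, a granzyme, with 3.54, 11.5, 6.09 and 11.05 FPKM.

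Markers of other cells in the harvested sample differed widely in level. Of the T cell, B cell and NK cell lists, 9, 4 and 7 genes reached 1 FPKM, and their summed levels were 29.2 and 38.1, 21.3 and 12.8, and 22.2 and 31.7 FPKM on and at 72 h. In the T cell list 1 gene was higher, Cd3d (log2 difference 1.36), and in the NK cell list 1, Ncr1 (1.30). In the B cell list 1 was lower, Cd79b (-1.41). Of all rows, 6.61% were higher and 5.76% lower. The T cell gene Cd3e and the B cell factor Pax5 were listed at 0 in both libraries. Endothelial genes were higher in 1 of 13 cases, the sinusoid receptor Stab2 (5.59 FPKM on and 13.8 FPKM at 72 h). Stromal and bone genes were higher in 2 of 11 cases, Cxcl12 and Dcn (decorin, 3.32 FPKM on and 9.61 FPKM at 72 h), and 8 of the 11 had their highest off level at 72 h, against 29.6% of all rows (7 of 11 and 24.9% with the off medians set equal). Col1a1, the main bone collagen, stood at 85.0 FPKM on and 109 FPKM at 72 h. The class II and dendritic list had 1 gene higher, Cd209a (9.38 FPKM on and 25.6 FPKM at 72 h), and 2 lower (2 higher and none lower on rescaling), while Cd74, abundant in both, stood at 2806 and 2118 FPKM. In the basophil, mast cell and eosinophil list 4 of 14 were lower and 3 higher. Among the lower were the basophil proteases Mcpt8 (24.4 FPKM on and 1.05 FPKM at 72 h) and Prss34 (5.22 and 0.138 FPKM). Higher were Ear1 (log2 difference 1.33) and Ear6 (1.04), ribonucleases of eosinophils, and the mast cell tryptase Tpsb2 (1.12). The Ear genes did not all go that way. Ear11 was lower, with 10.997 FPKM on and 0.176 FPKM at 72 h (-3.35), and Ear2 (0.31) lay within 2-fold. The eosinophil granule gene Prg2 stood at 253 FPKM on and 318 FPKM at 72 h (0.33), short of 2-fold. What such cells contribute to the differences above was not tested.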

How the data were processed

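RNA was sequenced from 4 samples of NRASG12V and Mll-AF9 leukaemia, 1 library per group, namely on and 48 h, 72 h or 96 h off. The authors deposited FPKM per gene in tables that each pair the on column with 1 off column. Per the submitters' processing notes, TopHat2 2.0.4 and Cuffdiff were run with build mm9; the annotation, read length, strand setting and Cuffdiff version are not named in the sources used here. Each time 0 column was used as the on library. Counts and depth are not part of FPKM, so no counting interval could be given.

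The 72 h comparison uses its own table alone. Tables were scaled separately, so for levels set across times the 48 h and 96 h tables were multiplied by 0.949 and 1.00, the factors that bring their on column to that of the 72 h table (99.9% of 15825 values above 0 then agreed within 0.1%). A pseudocount of 1 FPKM, a minimum of 1 FPKM in either column and a threshold of 2-fold were used; a list median was called at a size of 0.5. Named genes were the 20 largest differences each way outside short RNA rows and rows at 0, the 10 most abundant rows and the 10 largest gains and losses in FPKM, up to 10 rows highest or lowest at 72 h among the off libraries, and members of 65 gene lists, of which 1304 of 1309 entries matched a row. The members and lists were chosen with earlier results of these data known. Promoters came from RefSeq, GRCm38.p6, matched by symbol or synonym. Motifs were counted from 250 bases before to 50 bases after the start, and printed stretches lie before the start. More motifs were searched than are described above. The ETS letters CCGGAAGT were found for 0 of 10 ERK-responsive genes with an entry and the letters TCACNCCAC for 0 of 15 sterol synthesis genes. The letters CCNCNCCC were found for 13 of 18 red cell membrane genes, whose median was 1.78, against 2.60 in those without. Searches in the glycolysis, Nrf2, mitosis and DNA replication lists are not described. The deposited combined off table was not used, and some members of the lists are counted but not named here. Alternatives were other pseudocounts, filters, thresholds and scalings; the calculation was tested on simulated data (Python 3.11.15, pandas 2.3.3, numpy 2.4.6).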

Additional observations from a re-analysis of the deposited data

Results flagged for a closer look

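Stfa2, a stefin that inhibits cysteine proteases, lay on opposite sides of the on library at 2 off times: its log2 difference was 1.23 at 72 h and -1.19 at 96 h. Each time is 1 library, the difference between the times was not tested, and near-identical stefin copies make the value uncertain.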

How the results depend on the processing

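The count of genes called at 72 h depended on the settings, and no direction of a called gene or list median reversed. The reported counts were 776 higher and 676 lower. With a pseudocount of 0.1 FPKM 1205 were higher, and with 5 FPKM 385 and 301 were called. A 1.5-fold threshold gave 1761 and 2146 and a 4-fold threshold 124 and 69. Rescaling without red cell genes and short RNAs gave 438 lower, and leaving out Beta-s as well, an alternative chosen after seeing the data, 1180 higher and 397 lower. Of the 304 list and other named genes called, 83 lost the 2-fold difference at a pseudocount of 5 FPKM, 32 and 39 under the 2 rescalings and 13 with the median set to 0. Of the 26 list medians of at least 0.5, 8 fell short of it at a pseudocount of 5 FPKM, 6 and 7 under the rescalings, 3 with the median set to 0 and 2 with no filter. Genes lowest at 72 h among the off libraries numbered 8 at 2-fold, 76 at a pseudocount of 0.1 FPKM and 12 at 5 FPKM, and those highest 49 at 0.1 FPKM. The causes of these moves were not tested beyond the settings themselves. No paired analysis was possible because each group holds 1 library, and for the same reason no library could be left out in turn. Without read counts, depth limits genes of a few FPKM most.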

Other observations

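Of 19 integrin and adhesion genes, 4 were lower at 72 h and none higher; beside Cdh17, Itgb7 stood at 85.3 FPKM on and 31.4 FPKM at 72 h. Toll-like receptors and their adaptors were lower in 2 of 20 cases, Ly86 (78.6 FPKM on and 28.3 FPKM at 72 h) and Cd14. Of all rows, 5.76% were lower. Of 18 growth factor receptors, 2 were higher and 2 lower (2 and 1 on rescaling), against 6.61% and 5.76% of all rows, with a median of 0.02. Epor, described above, had the highest log2 difference (1.97). Il3ra, of the interleukin-3 receptor, had the lowest, with 11.2 FPKM on and 2.45 FPKM at 72 h (-1.82). Csf1r, of the macrophage growth factor, stood at 61.2 and 47.2 FPKM. None of 7 NADPH oxidase genes, which make the oxygen radicals of phagocytes, differed 2-fold (median -0.50).

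Linker histone H1f0 stood at 72.6 FPKM on and 20.7 FPKM at 72 h (-1.76), and 3 of 15 histone genes were lower and none higher. None of 26 chromatin modifiers differed 2-fold. Heat shock genes Hsph1 and Dnajb4 were higher, Hsph1 with 9.90 FPKM on and 32.8 FPKM at 72 h (1.63) and Dnajb4 with 7.13 and 24.0 FPKM, while the list's median of -0.05 turned to 0.15 on rescaling. The Myc antagonist Mxd1 stood at 25.7 FPKM on and 69.3 FPKM at 72 h (1.40). Of 20 aminoacyl-tRNA synthetases, 1 was higher, Cars (12.9 FPKM on and 28.2 FPKM at 72 h), a share near the 6.61% of all rows. The list's median was 0.14. Tac2, a tachykinin precursor, had the second largest positive difference outside short RNAs and rows at 0, with 0.845 FPKM on and 18.6 FPKM at 72 h, and Penk (proenkephalin) was lower with 13.7 and 0.701 FPKM.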
